A study of Mus musculus with 461 samples.

Results

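The 10 genes described here belong to the Wnt pathway and were taken by symbol: the secreted inhibitors Sfrp1, Sfrp2, Dkk2 and Dkk3, the ligand Wnt5a, the feedback gene Axin2, the DNA-binding partners Lef1, Tcf7 and Tcf7l1, and Ctnnb1, which encodes beta-catenin. All 10 were found among the 31673 genes of the count table, and all 10 passed the filter on low counts, which left 22378 genes to test. They were followed in 461 single mouse cells captured with the Fluidigm C1 system, which isolates cells in a microfluidic chip and makes full-length cDNA from each. The cells came from a reprogramming course called 7F, which turns mouse embryonic fibroblasts (MEFs) into induced pluripotent cells. The published 7F cocktail consists of Jdp2, Jhdm1b, Mkk6, Glis1, Nanog, Esrrb and Sall4, although the labels themselves do not list the factors.

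Every cell had the same mixed genetic background, of 129SVJ (1/2), C57B6 (3/8) and CBA (1/8), and carried OG2, a green fluorescent reporter of Oct4 (Pou5f1). Day 0 cells were MEFs, the untreated starting population. The labels keep MEFs in a medium with 10% FBS (fetal serum) and reprogramming cells in iCD1 medium, whose composition they do not give, so that day, factors and medium cannot be told apart between day 0 and the later days. Titles carry a prefix, b1, b2 or b3, of unstated meaning. Cells of 1 prefix and 1 day form a set: 20 cells (b1) and 54 cells (b2) at day 0, 58 cells (b2) at day 1, 61 cells (b1) and 58 cells (b2) at day 3, 59 cells (b3) at day 4, 79 cells (b2) at day 5 and 65 cells (b2) at day 7. A further 5 cells at day 5 and 2 cells at day 7 carried b1 and did not enter the main test. Day 4 was sampled only under b3, so that day and prefix cannot be told apart there. The number of animals or derivations behind a set is not given.

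Wnt proteins are secreted lipid-modified ligands that bind Frizzled and Lrp receptors. In the canonical branch, receptor activation stops the Axin, Apc and Gsk3 complex from marking beta-catenin for destruction, and stabilised beta-catenin joins TCF/LEF proteins on target genes. Secreted frizzled-related proteins bind Wnt ligands, Dickkopf proteins such as Dkk2 act on Lrp co-receptors, and Axin2 is both a target and a brake of the pathway. In mouse embryonic stem cells Tcf7l1 represses genes of the pluripotency network, and Gsk3 inhibition is widely used to hold these cells in the naive state.

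The sets held 58.39 M to 208.9 M summed counts (M for mega), and single cells held 0.319 M to 7.0 M (median 2.5 M). The fibroblast markers (Col1a1, Col1a2, Col3a1, Dcn, Lum, Pdgfra, Thy1 and Postn) summed to 858.6 and 685.2 TPM (the authors' length-scaled abundance) at day 0 in the b1 and b2 sets, with none of the 8 at 0 and 8 and 6 of them at 1 TPM or more. Across the later sets of 10 or more cells they summed to 75.8 to 305.1 TPM. The 8 pluripotency markers (among them Pou5f1, Zfp42, Dppa5a and Sox2) reached 10490 TPM in the b2 set of day 7, against 0.389 and 0.248 TPM at day 0. In sets of 10 or more cells the 6 macrophage markers summed to 1.48 to 22.7 TPM, highest at day 5. The defining marker Adgre1 was at 0 in every set, and Cd68 was the only one of the 6 to reach 1 TPM in those sets. The 4 skeletal muscle markers summed to at most 0.407 TPM in sets of 10 or more cells, and the 4 Schwann and neural crest markers to at most 19.8 TPM. The 6 endothelial markers summed to 0.57 to 30.2 TPM, and the 6 epithelial markers to 552.8 TPM at day 7, against 227.5 and 116.9 TPM at day 0. The part of these shifts in cell makeup in the results on the Wnt genes was not tested.

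The promoter windows of 3 genes are shown because Axin2, Sp5 and Lef1 are well-known targets of beta-catenin and TCF, and the results on the pathway's output turn on the first pair. RefSeq windows (GRCm38.p6, 250 bases before to 50 after a start) existed for 7 of the 10 genes: Sfrp2, Dkk2, Axin2, Lef1, Tcf7, Tcf7l1 and Ctnnb1. The TCF core was searched as CTTTG followed by a pair of bases that are each A or T, on both strands, and matches are in capitals. For Lef1, which has 4 windows, the one with a match is shown.
Axin2, chr11:108920099-108920398, plus strand: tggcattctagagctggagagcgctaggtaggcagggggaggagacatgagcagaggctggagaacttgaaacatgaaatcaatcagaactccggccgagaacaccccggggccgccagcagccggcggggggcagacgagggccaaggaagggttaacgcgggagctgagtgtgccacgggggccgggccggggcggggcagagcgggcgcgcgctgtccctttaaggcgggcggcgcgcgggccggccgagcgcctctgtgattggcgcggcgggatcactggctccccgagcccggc
Sp5, chr2:70474673-70474972, plus strand: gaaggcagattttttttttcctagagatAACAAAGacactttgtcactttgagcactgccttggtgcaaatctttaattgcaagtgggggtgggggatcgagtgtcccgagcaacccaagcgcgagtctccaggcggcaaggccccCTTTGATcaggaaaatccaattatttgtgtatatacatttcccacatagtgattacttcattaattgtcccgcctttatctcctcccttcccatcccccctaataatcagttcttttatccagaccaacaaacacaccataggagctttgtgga
Lef1, chr3:131156044-131156343, plus strand: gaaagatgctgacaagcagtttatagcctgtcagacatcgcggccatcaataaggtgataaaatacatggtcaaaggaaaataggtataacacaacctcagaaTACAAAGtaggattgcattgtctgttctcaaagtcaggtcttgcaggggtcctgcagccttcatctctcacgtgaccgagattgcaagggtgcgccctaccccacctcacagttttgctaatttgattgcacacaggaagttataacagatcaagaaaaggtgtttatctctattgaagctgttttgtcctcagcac
The Axin2 window held no match and 70% G and C, the Sp5 window held 2 matches and 45% G and C, and the Lef1 window held 1 match and 43.7% G and C. Of the 12 windows of the 10 genes only this Lef1 window held a match, and 16.9% of all 32851 windows of the same length held one. A match is a run of letters and not evidence of binding, and an absent match says only that these letters are not in the window.

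Over all 7 comparisons of days, the inhibitors and the ligand made up every call among the 10 genes: Sfrp1, Sfrp2, Dkk3 and Wnt5a were each lower on at least 1 later day. The edgeR quasi-likelihood test made 10 calls in 70 member comparisons (Benjamini-Hochberg adjusted p under 0.05 over all genes), all of them lower. Every Sfrp2 call among them ended when the highest cell of each set was left out. No member was called higher, although 6 of the 70 were higher at an unadjusted p under 0.05, and DESeq2 called 2, both for Tcf7l1. Against day 0, 1 of 10 members was called at day 1, lower, where 1.18% of all genes were called (0.934% higher and 0.25% lower). At day 3, 1 of 10 was called, lower, beside 3.14% of all genes (2.1% higher and 1.04% lower), and at day 4, 1 of 10, lower, beside 3.03% (2.07% higher and 0.965% lower). At day 5, 2 of 10 were called, both lower, beside 4.73% of all genes (2.56% higher and 2.18% lower), and at day 7, 3 of 10, all lower, beside 6.6% (3.55% higher and 3.05% lower). Between later days 1 of 10 was called lower at day 5 against day 3, beside 1.71% of all genes (0.643% higher and 1.07% lower), and 1 of 10 at day 7 against day 5, beside 0.554% (0.103% higher and 0.451% lower). The members' median log2 fold change against day 0 was -0.739 at day 1, -0.479 at day 3, -0.234 at day 4, -0.285 at day 5 and 0.85 at day 7, where the median of all genes tested was 0.114 at day 3 and 0 on the other days. The test has 2 residual degrees of freedom, from days 0 and 3, and rests on the spread shared over genes, so that a gene with sets far apart on 1 day can still have a small p.

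**Figure D1:**
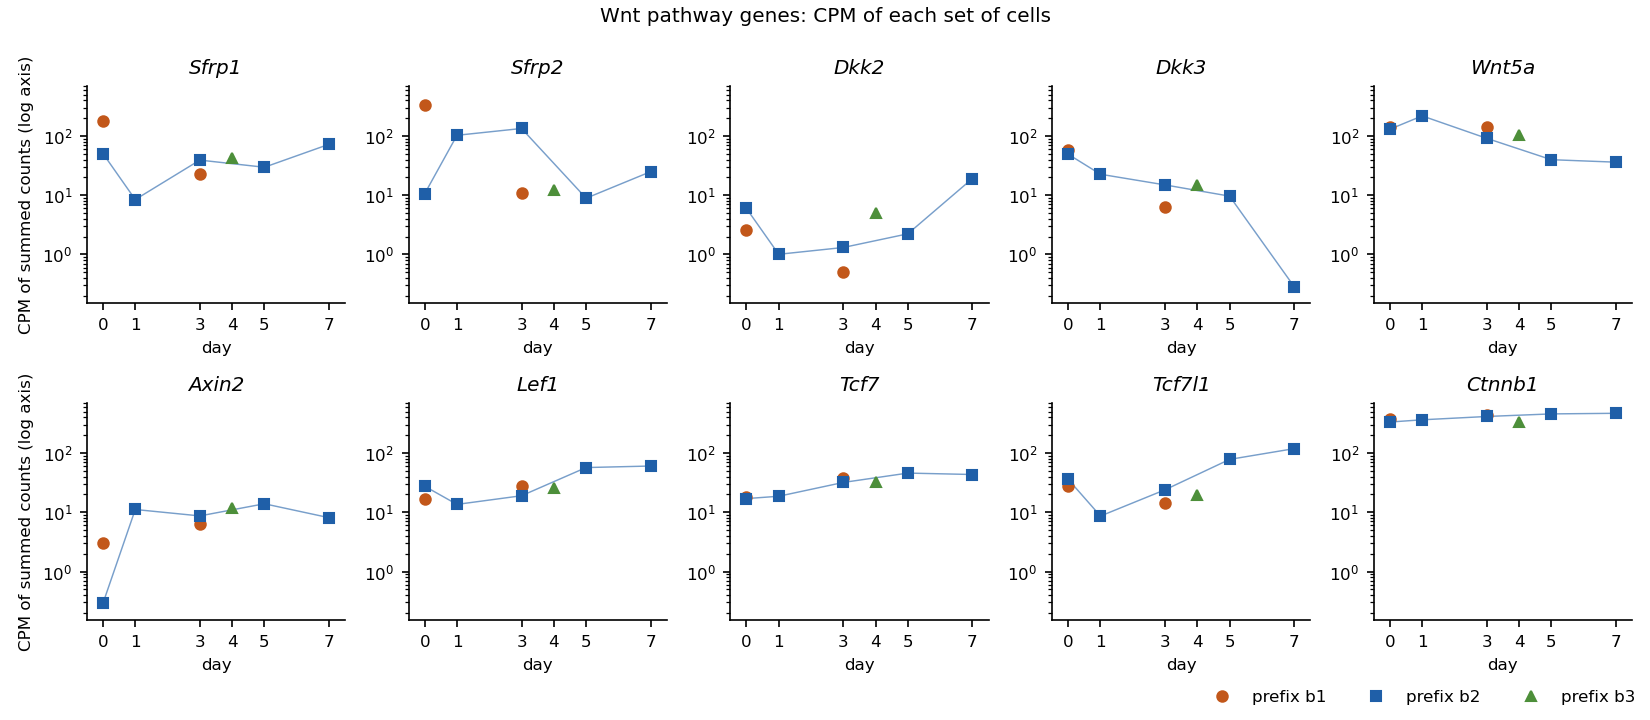
Counts scaled to library size (CPM, log axis) of the 10 genes, summed over the cells of each set, against day; each point is 1 set, marked by prefix, and the line joins the b2 sets. Dkk3 goes down to 0.286 CPM at day 7, Axin2 of prefix b2 stands at 0.291 CPM at day 0 and at 8.12 CPM or more on the later days, and the pairs of Sfrp2 sets at days 0 and 3 lie far apart.

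Dkk3, a divergent member of the Dickkopf family that is abundant in fibroblasts and other mesenchymal cells, was the inhibitor with the clearest decline. Its level was 57.3 and 49.2 CPM in the day 0 sets, 22.6 CPM at day 1, 6.37 and 14.9 CPM at day 3, 14.7 CPM at day 4, 9.65 CPM at day 5 and 0.286 CPM at day 7. The day 7 set lay far below both day 0 sets, while the days between held intermediate levels. Dkk3 fell by 7.53 on the log2 scale at day 7 against day 0 (SE 1.4, edgeR adjusted p = 5.7e-06), and fell by 5.07 at day 7 against day 5 (SE 1.28, edgeR adjusted p = 0.0177). At day 3 and day 5 against day 0 the log2 differences were -2.32 (edgeR adjusted p = 0.0885) and -2.46 (edgeR adjusted p = 0.214), neither of which passed in edgeR, while DESeq2 called both. The day 7 call was kept in 11 of 14 alternatives, with adjusted p from 1.28e-19 to 0.252. The day 7 against day 5 call was kept in 7 of 14, and ended without either day 3 set (log2 -5.07 each, adjusted p = 0.0573 and 0.077) and with each set's highest cell left out (log2 -5.37, adjusted p = 0.0772).

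Few cells of day 7 held Dkk3 at all. At 1 TPM or more it was detected in 4.62% of cells at day 7 (3 of 65, 95% interval 0.962 to 12.9%), against 60% (12 of 20) and 57.4% (31 of 54) at day 0. The share was 36.2% at day 1, 21.3% and 15.5% at day 3, 25.4% at day 4 and 7.6% at day 5. No b2 cell of day 7 exceeded 2.74 TPM, against highest cells of 176.0 and 185.5 TPM at day 0. Both of the 2 b1 cells of day 7, which did not enter the test, held Dkk3, at up to 5.04 TPM, and their fibroblast markers summed to 619.0 TPM, against 76.2 TPM in the b2 set of that day. Within the 58 b2 cells of day 3, Dkk3 followed the collagen gene Col1a1 with a Spearman correlation of 0.482 and ran against Pou5f1 with -0.506. That set had the strongest values, and those at day 5 (0.076 and -0.084) and day 7 (0.142 and -0.147), when few cells held Dkk3, were near 0. Among genes of at least 20 CPM on average, those most like Dkk3 over the 8 sets were Cav1 (Pearson r = 0.982 in log2 CPM), Lhfp (0.981) and Ifit2 (0.978), and the sets share medium and day.

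**Figure D2:**
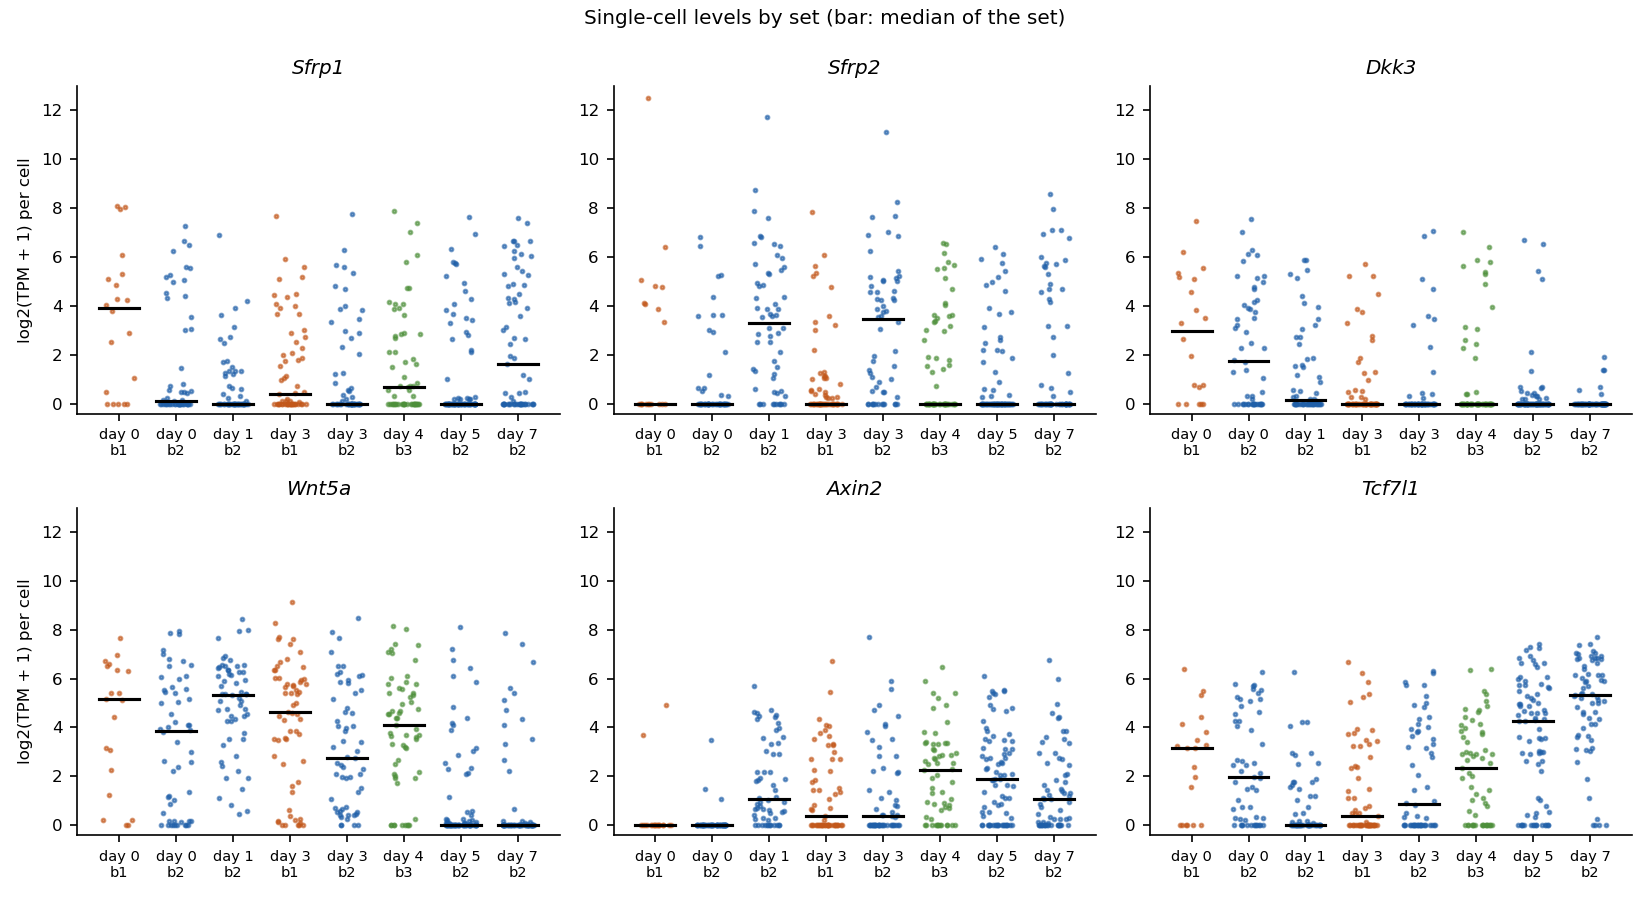
Level per cell, as log2(TPM + 1), of Sfrp1, Sfrp2, Dkk3, Wnt5a, Axin2 and Tcf7l1 in the 8 sets, coloured by prefix; each point is 1 cell and the bar is the median of the set. Most day 7 cells have no Dkk3 or Wnt5a, most have Tcf7l1, and 1 cell of the b1 set at day 0 stands at 5800 TPM of Sfrp2.

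Sfrp1, which binds Wnt ligands in the extracellular space, fell early and stood near its starting level at the end. It had 176.9 and 50.6 CPM at day 0, 8.44 CPM at day 1, 22.5 and 39.2 CPM at day 3, 42.8 CPM at day 4, 29.7 CPM at day 5 and 72.4 CPM at day 7. Day 1 lay below both day 0 sets, and day 7 lay between them. Sfrp1 fell by 3.75 at day 1 against day 0 (log2, SE 0.785, edgeR adjusted p = 0.000477) and fell by 1.88 at day 3 (SE 0.539, edgeR adjusted p = 0.0199). At day 7 against day 0 the log2 difference was -0.65 (SE 0.657, edgeR adjusted p = 0.724). The day 1 call was kept in 10 of 14 alternatives, with adjusted p from 6.5e-07 to 1. The day 3 call was kept in 5 of 14 (adjusted p from 0.000156 to 0.713), and ended without the b1 set of day 0, where the log2 difference was -0.71, and without either day 3 set.

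The share of cells with Sfrp1 at day 1 was near that of 1 day 0 set, while the level within those cells was below both. Sfrp1 was detected in 29.3% of cells at day 1, against 70% and 31.5% at day 0. The median of the cells that held it was 2.4 TPM at day 1, against 23.4 and 32.8 TPM at day 0. At day 7 the share was 53.9% (95% interval 41.03 to 66.3%), with a median of 27.6 TPM among those cells. In day 7 cells Sfrp1 ran with the pluripotency gene Dppa5a (Spearman 0.526 over 65 cells, 0.376 over 79 cells at day 5), but also with the number of genes detected (0.372 at day 7). The cells of each correlation share 1 day and prefix. Over the 8 sets the genes most like Sfrp1 were Syne2, Med14 (r = 0.929 each) and Crbn (0.919).

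Sfrp2, a close relative of Sfrp1, was called lower on 3 later days, but its day 0 level rests on 1 cell. Its sets read 338.8 and 10.6 CPM at day 0, 102.9 CPM at day 1, 11.1 and 134.1 CPM at day 3, 12.1 CPM at day 4, 8.9 CPM at day 5 and 24.99 CPM at day 7. The b1 set was the higher of the pair at day 0 and the lower at day 3, so the groups overlap. Against day 0, Sfrp2 fell by 3.85 at day 4 (log2, SE 0.709, edgeR adjusted p = 9.12e-06), fell by 4.29 at day 5 (SE 0.727, edgeR adjusted p = 4.94e-07) and fell by 2.81 at day 7 (SE 0.665, edgeR adjusted p = 0.000989). It also fell by 3.03 at day 5 against day 3 (SE 0.674, edgeR adjusted p = 0.00111).

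A single cell at 5800 TPM held 96.2% of all Sfrp2 counts of the b1 set at day 0. With each set's highest cell left out, the log2 differences were -0.40 at day 4 (adjusted p = 0.99), -0.66 at day 5 (adjusted p = 0.882) and 0.66 at day 7 (adjusted p = 0.808), and no call was left. Leaving out all b1 cells of day 0 gave 0.19, -0.25 and 1.23 (adjusted p = 1, 0.99 and 0.39), and Sfrp2 was then called higher at day 1 (log2 3.28, adjusted p = 0.00229) and at day 3 (log2 2.77, adjusted p = 0.00367). Within prefix b2 the level was 9.68-fold higher at day 1 and 12.6-fold higher at day 3 than at day 0, and at day 3 against day 0 in b1 it was 30.6-fold lower. The highest cell held 46.6% of the set's Sfrp2 counts at day 1 and 70.2% in b2 at day 3. The share of cells, which 1 cell cannot move far, was 74.1% at day 1 (43 of 58, 95% interval 60.96 to 84.7%), against 45% and 22.2% at day 0. At day 3 it was 29.5% in b1 and 67.2% in b2, then 47.5% at day 4, 27.9% at day 5 and 36.9% at day 7. With those cells left out, day 5 against day 3 was not called either (log2 -1.71, adjusted p = 0.726). The genes most like Sfrp2 over the 8 sets were Zfp426 (r = 0.938), Efhd2 and Samd4b (0.928 each).

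Dkk2, the Dickkopf protein that acts on Lrp5 and Lrp6, stayed rare. It was detected in 1.85 to 11.9% of the cells of each set, and 1 cell of the b2 set at day 0 held 99.6% of that set's counts. The level was 19.1 CPM at day 7, against 2.55 and 5.97 CPM at day 0, a log2 difference of 2.17 (SE 1.72, edgeR adjusted p = 0.608). At day 7 only 6 of 65 cells had Dkk2, and the highest held 47.7% of the counts. No comparison called it.

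Of the 4 inhibitors together, 41.8% of the cells at day 5 (33 of 79) had none at 1 TPM or more, against 10.0% and 22.2% at day 0. The share was 13.8% at day 1, 36.1% in b1 and 15.5% in b2 at day 3, 15.25% at day 4 and 26.2% at day 7. The 2 sets of day 3 thus lay far apart, with b1 near the day 5 share. Cells with 2 or more inhibitors made up 27.7% at day 7, against 60% and 27.8% at day 0. All 4 were found together in 3 b1 cells of day 3, in 1 cell of day 4 and in 1 b1 cell of day 7.

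Wnt5a, a ligand best known for beta-catenin-independent signalling through Ror2 and Frizzled receptors, fell late. Its sets read 140.7 and 130.4 CPM at day 0, 218.8 CPM at day 1, 141.1 and 91.4 CPM at day 3, 103.6 CPM at day 4, 39.8 CPM at day 5 and 36.2 CPM at day 7. Days 5 and 7 lay below every earlier set, and the 2 day 0 sets were close together. Against day 0, Wnt5a fell by 1.77 at day 5 (log2, SE 0.579, edgeR adjusted p = 0.0486) and fell by 1.91 at day 7 (SE 0.584, edgeR adjusted p = 0.0217). At day 1 the log2 difference was 0.69 (SE 0.519, edgeR adjusted p = 1). The day 5 call was kept in 6 of 14 alternatives (adjusted p from 0.00422 to 0.233) and the day 7 call in 8 of 14 (0.00148 to 0.27). Both ended without either day 3 set, where the log2 differences at day 5 were -1.77 each time and those at day 7 were -1.91.

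The number of cells with Wnt5a was lowest on the same days. It was detected in 20% of cells at day 7 (13 of 65, 95% interval 11.1 to 31.8%) and 25.3% at day 5 (20 of 79), against 80% and 70.4% at day 0. At day 1, 94.8% of cells (55 of 58) held it, and 72.4 to 83.1% did at days 3 and 4. Among day 5 cells it ran against Pou5f1 (Spearman -0.59 over 79 cells) and Dppa5a (-0.497). That set had the strongest values, which were -0.215 and -0.158 at day 7 and -0.159 and -0.186 at day 4. Among day 7 cells Wnt5a ran with Lef1 (0.468 over 65 cells), and 11 of the 13 cells with Wnt5a held Lef1. The correlation of Wnt5a with the total count per cell was -0.03 at day 5 and with the number of genes 0.184. Over the 8 sets the genes most like Wnt5a were Tnnt3 (r = 0.977), Entpd7 (0.976) and Atp6v1e1 (0.969).

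**Figure D3:**
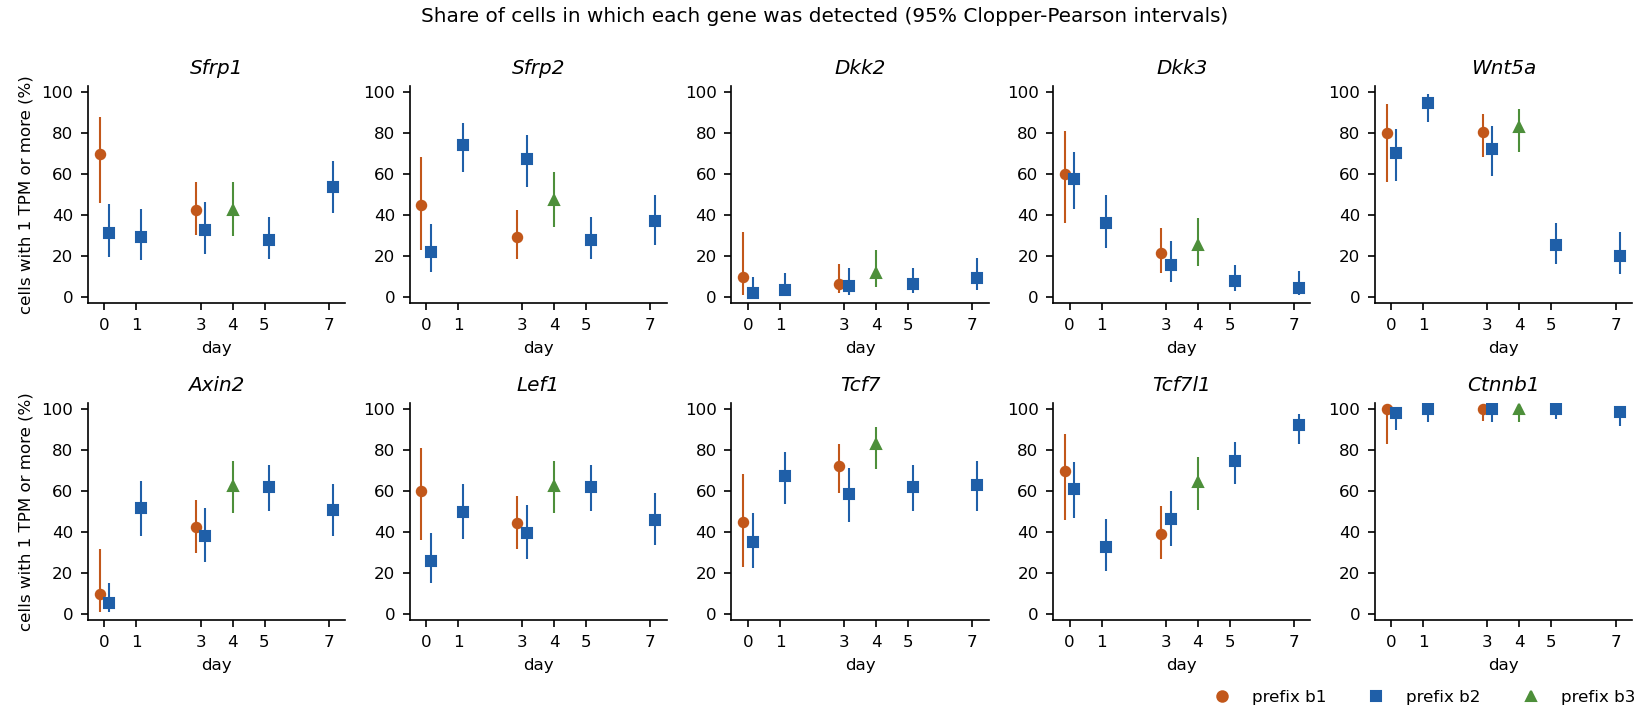
Share of cells with 1 TPM or more of each of the 10 genes, against day; points are sets, marked by prefix, with exact 95% Clopper-Pearson intervals that cover counting error only. Axin2 is in 10.0% and 5.56% of day 0 cells and in 37.9 to 62.7% of the later cells, while Dkk3 and Wnt5a are in few cells at day 7 and Tcf7l1 is in 92.3%.

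Axin2, the feedback gene often used as a readout of beta-catenin and TCF activity, was found in few fibroblasts and in many cells of every later set. It was detected in 51.7% of cells at day 1 (30 of 58), 42.6% and 37.9% at day 3, 62.7% at day 4, 62.03% at day 5 and 50.8% at day 7 (33 of 65, 95% interval 38.1 to 63.4%), against 10.0% (2 of 20, interval 1.24 to 31.7%) and 5.56% (3 of 54, interval 1.16 to 15.4%) at day 0. With every cell thinned to 300000 counts and 1 count taken as detection, the shares ran from 35.4 to 65.8% in the later sets, against 10.0% and 3.7% at day 0. Every later share lay above both day 0 shares, thinned or not. The thinned interval of day 7 (23.9 to 48.2%) overlapped that of the b1 set of day 0 (1.24 to 31.7%). Cells are not replicates, so these shares carry no test.

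In summed counts Axin2 had 3.04 and 0.291 CPM at day 0, 11.2 CPM at day 1, 6.41 and 8.69 CPM at day 3, 11.9 CPM at day 4, 13.9 CPM at day 5 and 8.12 CPM at day 7. Every later set lay above both day 0 sets. The log2 differences against day 0 were 2.75 at day 1 (SE 1.39), 2.19 at day 3 (SE 1.23), 2.84 at day 4 (SE 1.4), 3.07 at day 5 (SE 1.4) and 2.29 at day 7 (SE 1.39), and none passed (edgeR adjusted p from 0.266 to 0.692). With the b1 cells of day 0 left out, Axin2 was called at day 5 (log2 5.58, adjusted p = 0.031), its 1 call in all alternatives. Within prefix b2 the level was 27.9-fold to 47.9-fold higher on the later days than at day 0, and within prefix b1 it was 2.11-fold higher at day 3. A day 0 cell at 29.4 TPM held 69.8% of the b1 counts. Its correlations with Pou5f1 and Dppa5a were between -0.163 and 0.309 in the sets of days 1 to 7, and its highest with another of the 10 genes was 0.381, with Tcf7 in the 58 cells of day 1.

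Lef1 and Tcf7, the TCF proteins mostly linked to activation of target genes, had their highest levels at days 5 and 7 without a call. Lef1 read 17.1 and 27.6 CPM at day 0, 13.6 CPM at day 1, 28.04 and 19.1 CPM at day 3, 26.1 CPM at day 4, 57.04 CPM at day 5 and 60.5 CPM at day 7. The log2 difference at day 7 against day 0 was 1.44 (SE 0.763, edgeR adjusted p = 0.335). Tcf7 read 18.3 and 17.1 CPM at day 0, 18.7 CPM at day 1, 37.5 and 31.97 CPM at day 3, 32.8 CPM at day 4, 46 CPM at day 5 and 43.5 CPM at day 7, with a log2 difference of 1.3 at day 7 against day 0 (SE 0.769, edgeR adjusted p = 0.419). All sets from day 3 on lay above both day 0 sets for Tcf7, and for Lef1 days 5 and 7 did so, with b1 at day 3 only just above the higher day 0 set. Tcf7 was detected in 58.6 to 83.1% of cells from day 1 on, against 45% and 35.2% at day 0.

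At days 5 and 7 Lef1 was higher in cells where pluripotency genes were lower. Its Spearman correlation with Dppa5a was -0.484 over 79 cells at day 5 and -0.411 over 65 cells at day 7, and with Pou5f1 -0.439 and -0.282. At day 4 the values had the other sign (Dppa5a 0.162 and Pou5f1 0.344 over 59 cells). At day 3 Lef1 had 0.199 with Pou5f1 and -0.117 with Dppa5a in b1, and -0.24 and 0.084 in b2. Lef1 was detected in 62.03% of day 5 cells and 46.2% of day 7 cells, and its highest cell at day 7 held 433.1 TPM. The genes most like Lef1 over the 8 sets were Fkbp5 (r = 0.99), Patz1 (0.971) and Adprh (0.969), and those most like Tcf7 were Lefty2 (0.973), Socs2 (0.968) and L1td1 (0.964).

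Tcf7l1, the family member best known as a repressor, had a dip at day 1 and its highest level at day 7. It had 28.1 and 36.1 CPM at day 0, 8.65 CPM at day 1, 14.5 and 24.02 CPM at day 3, 19.3 CPM at day 4, 78.3 CPM at day 5 and 119.1 CPM at day 7. Days 5 and 7 lay above all other sets, and days 1, 3 and 4 below both day 0 sets. The log2 difference against day 0 was -1.89 at day 1 (SE 0.765, edgeR adjusted p = 0.376) and 1.89 at day 7 (SE 0.668, edgeR adjusted p = 0.065), and 2.02 at day 5 against day 3 (SE 0.668, edgeR adjusted p = 0.105). DESeq2 called all 3 (adjusted p = 0.0451, 0.0123 and 0.0194), and edgeR with DESeq2 size factors called day 7 (adjusted p = 0.0432). The day 5 against day 3 difference was called without either day 0 set (adjusted p = 0.0202 each).

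Tcf7l1 was detected in 92.3% of day 7 cells (60 of 65, 95% interval 82.95 to 97.5%) and 74.7% of day 5 cells, against 70% and 61.1% at day 0. Day 1 had the lowest share, 32.8%. At days 5 and 7 it ran with the pluripotency genes, with a Spearman correlation with Dppa5a of 0.348 over 79 cells at day 5 and 0.592 over 65 cells at day 7. Its correlation with the total count was 0.225 at day 5 and 0.004 at day 7. The genes most like it over the 8 sets were Ncapd2 and Kdm1a (r = 0.975 each) and Asns (0.972).

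Ctnnb1 was the most even of the 10 genes. It read 378.5 and 335.1 CPM at day 0 and between 337.4 and 470.8 CPM on the later days, and was detected in at least 98.2% of the cells of every set. Its log2 difference against day 0 lay between -0.08 and 0.40 (edgeR adjusted p from 0.775 to 1), with standard errors of 0.376 to 0.462. Transcript level says nothing of beta-catenin protein, which the pathway controls through its stability. Ankrd11 (r = 0.947), Hmgxb3 and Hira (0.946 each) were the genes most like Ctnnb1.

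Per transcript length, the makeup of the 4 TCF/LEF transcripts moved away from Tcf7l2, the family member that is not among the 10. Tcf7l2 made up 34.8% of the summed mean TPM of the 4 at day 7, against 82.3% and 74.7% at day 0. Tcf7l1 made up 27.5% at day 7, against 6.35% and 9.55% at day 0, and Lef1 made up 25.3%, against 6.79% and 8.61%. The summed level was 202.2 TPM at day 7, against 211.5 and 136.8 TPM at day 0. Tcf7l2 fell by 1.86 at day 7 against day 0 (log2, SE 0.564, edgeR adjusted p = 0.0203), at 70.9 CPM against 306.9 and 206.5 CPM. In b1 at day 3 the Tcf7l2 share was 60.3% and in b2 74.01%, a difference between sets of 1 day that is near that between some days.

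**Figure D4:**
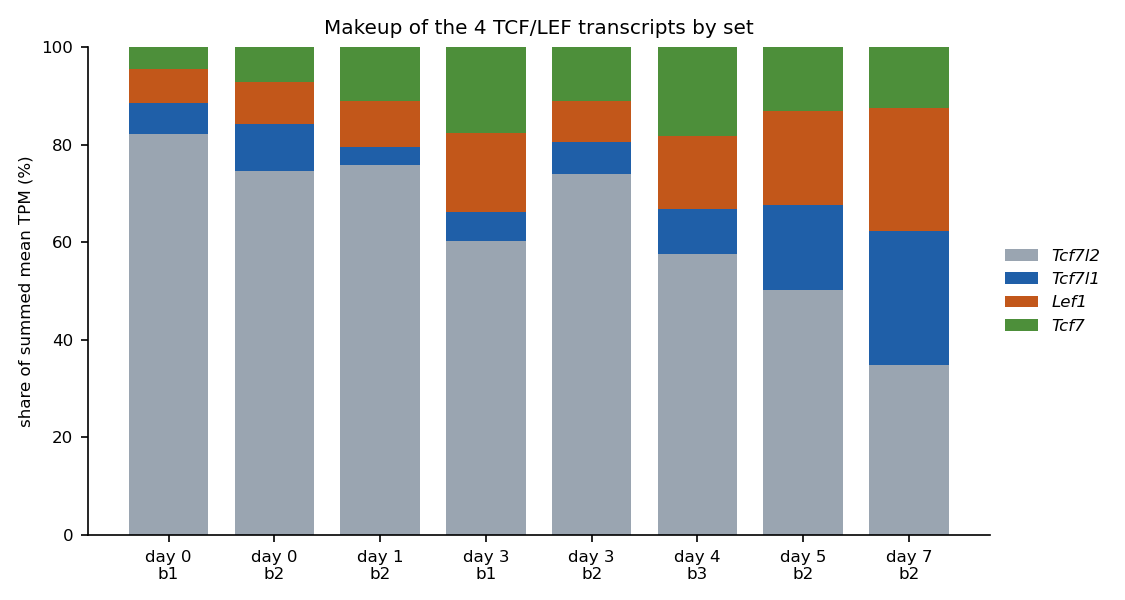
Share (%) of Tcf7l2, Tcf7l1, Lef1 and Tcf7 in the sum of their mean TPM, for each of the 8 sets in order of day; each bar is 1 set. The Tcf7l2 share is lowest at day 7, at 34.8%.

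Beside the 10 genes, the rest of a list of 98 pathway genes was read in the same fit. Of these 88 genes, 3 were called at day 1 against day 0 (3 higher), 8 at day 3 (7 higher and 1 lower), 8 at day 4 (8 higher), 10 at day 5 (9 higher and 1 lower) and 20 at day 7 (11 higher and 9 lower). These are 3.41, 9.09, 9.09, 11.4 and 22.7% of the list, against 1.18, 3.14, 3.03, 4.73 and 6.6% of all genes. The list was put together with results of these data known, so the shares describe it and test nothing. Calls of these 88 genes were read in the main test only, not under the alternatives or without the highest cells.

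Several listed targets of the pathway rose. Of 9 targets beside Axin2, 2 were called higher at day 1 against day 0, 4 at day 3, 3 at day 4, 4 at day 5 and 3 at day 7. Of all genes 0.934, 2.1, 2.07, 2.56 and 3.55% were called higher on these days. At day 7, 1 target was called lower, beside 3.05% of all genes. The median log2 difference over the 9 was 1.43 at day 1, 3.83 at day 5 and 2.28 at day 7, where the median of all genes was 0. Tnfrsf19, a receptor gene of the tumour necrosis factor family, rose on all 5 later days, with 50.3 CPM at day 1, against 2.05 and 1.58 CPM at day 0 (log2 4.8, SE 0.678, edgeR adjusted p = 2.29e-09). Sp5, a transcription factor gene whose promoter window is printed above, had 2 counts at day 0 and was called higher on all 5 later days. Its ratio was 414 at day 1 (counting interval 114 to 3430) and 201 at day 7 (55.2 to 1660). These intervals come from pooled reads and leave out the spread between cells and between sets. Cdx1, a caudal homeobox gene, rose at days 3, 4, 5 and 7 (log2 5.98 at day 5, SE 1.54, edgeR adjusted p = 0.00401). Nkd2, which encodes a Dishevelled-binding inhibitor, rose at day 3 by 3.89 and at day 5 by 3.05 (edgeR adjusted p = 4.88e-05 and 0.006). The sets of Nkd2 lay apart, at 8.82 and 0.476 CPM at day 0 and 110.1 and 27.2 CPM at day 3. At day 7 it had 8.67 CPM, near the higher day 0 set. Ccnd1, the cyclin D1 gene, fell by 1.63 at day 7 (log2, SE 0.53, edgeR adjusted p = 0.0353).

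Among the 17 genes listed as secreted inhibitors, Notum was called higher on every later day. It strips the lipid from Wnt ligands and is itself a target of the pathway. It stood at 33.1 CPM at day 7, against 0.018 and 0.0463 CPM at day 0 (log2 9.85, SE 1.61, edgeR adjusted p = 9.39e-08). Dkk1, the founding Dickkopf inhibitor, rose at day 7 to 31.4 CPM, against 0.0539 and 0.999 CPM at day 0 (log2 5.88, SE 1.81, edgeR adjusted p = 0.023). Dkkl1 had 0 counts at day 0 and was at least 425-fold higher at day 7, taking 3 counts over the day 0 sets. Wif1, which binds Wnt ligands, fell by 3.76 at day 7 (log2, SE 0.873, edgeR adjusted p = 0.000708). Of the 17 genes listed as inhibitors, 3 were called higher at day 7 (Notum, Dkk1 and Dkkl1) and 3 lower (Wif1, Sfrp2 and Dkk3). Of all genes, 3.55% were called higher and 3.05% lower at day 7. The fall of Sfrp2 ended without its highest cells. Sostdc1 was at 0 in both day 3 sets, at least 152-fold lower than at day 0, where b1 was at 0 as well and all counts came from b2 (1.83 CPM), and it was at least 209-fold higher at day 5 than at day 3.

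Of the 19 ligands, Wnt3 rose at days 4, 5 and 7 against day 0, reaching 24.9 CPM at day 5, against 0.305 and 0.0529 CPM at day 0 (log2 7.17, SE 1.64, edgeR adjusted p = 0.000634). Wnt8a had 0 counts at day 0 and was at least 137-fold higher at day 3 and at least 228-fold higher at day 7. The day 3 level rests on b2 (5.19 CPM), with 0.00946 CPM of Wnt8a in b1. Wnt7b fell at days 5 and 7 (log2 -4.83 at day 5, SE 0.986, edgeR adjusted p = 7.32e-05), as did Wnt10a at day 7 (log2 -4.29, SE 1.33, edgeR adjusted p = 0.0246). Porcn, the enzyme that adds the lipid to Wnt ligands, rose at days 3 to 7 (log2 5.03 at day 7, SE 1.04, edgeR adjusted p = 7.11e-05). At day 3 Porcn had 23.2 CPM in b2 but 0.998 CPM in b1, which lies within the day 0 range of 0.413 and 2.47 CPM. Wls, the carrier that brings the ligands to the surface, fell at day 7 (log2 -1.88, SE 0.523, edgeR adjusted p = 0.00868).

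Of 15 receptors, Fzd10 rose at days 4, 5 and 7, Ror2 rose at day 7 by 4.02 (SE 1.24, edgeR adjusted p = 0.023), and Fzd2 fell by 3.75 at day 7 (log2, SE 0.977, edgeR adjusted p = 0.00387). The shares of all genes called at day 7 were 3.55% higher and 3.05% lower. Ror2, a receptor of Wnt5a, was at 30.6 CPM at day 7, against 1.2 and 2.56 CPM at day 0, in the same set in which Wnt5a was at its lowest. The corepressor genes Tle2 and Tle5 fell at day 7 (log2 -7.81 and -2.29, edgeR adjusted p = 0.0147 and 0.0466), and the day 0 sets of Tle2 lay apart, at 35.7 and 1.07 CPM. None of the 13 cytoplasmic genes, Axin2 among them, was called in any comparison. Of all genes 0.554 to 6.6% were called in each comparison, so the absence of calls among 13 genes is no trait of this group. Gsk3b, the kinase of the destruction complex and the most abundant gene of the list at a mean of 1229 CPM, had a log2 difference of -0.76 at day 7 against day 0 (SE 0.446, edgeR adjusted p = 0.412). In the R-spondin group, Rspo3 fell by 5.78 at day 7 against day 5 (log2, SE 1.51, edgeR adjusted p = 0.0255).

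**Figure D5:**
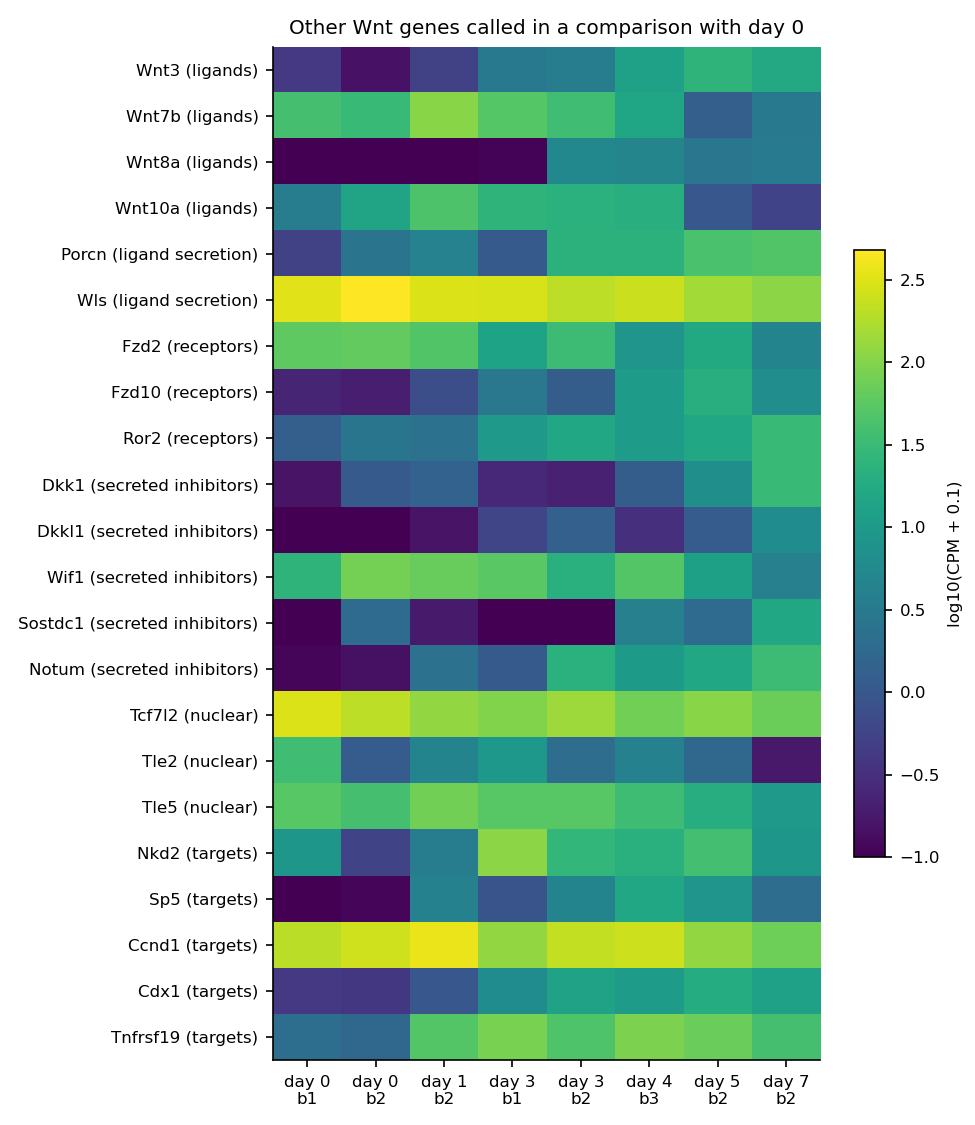
Level of the 22 other Wnt pathway genes that were called in at least 1 comparison with day 0, as log10(CPM + 0.1), by set in order of day; rows are genes with their role. Notum, Sp5, Wnt3 and Wnt8a are near the floor in both day 0 sets, while Wls, Tcf7l2 and Ccnd1 are among the highest rows there.

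Exons of 6 of the 10 genes overlap exons of another gene on the opposite strand in the GENCODE annotation: Sfrp2 with Gm26771, Wnt5a with Gm2670, Axin2 with Gm11670, Lef1 with Gm43352, Tcf7l1 with Gm15401 and Ctnnb1 with Ulk4. No strand setting is given for the counting, so reads of such a pair cannot be told apart in the overlap. The partner of Axin2 was not tested, and the others had at most 7.74 CPM in any set.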

How the data were processed

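Single cells were measured by full-length mRNA sequencing after capture with the Fluidigm C1, and each sample is 1 cell. The authors deposited 2 tables, 1 of RSEM expected counts and 1 of TPM (abundance scaled by transcript length and library size), with genes in rows and cells in columns. Per the submitters' processing notes, bcl2fastq and RSEM 1.2.22 were used. Aligner, genome build, annotation and strand setting: not given in the sources used here. Of the deposited expected counts 9.108% were not whole.

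Because cells of 1 set are not replicates, a sum of expected counts was made per prefix and day, rounded, and tested for the 8 sets of at least 10 cells with edgeR 4.0.16 (R 4.3.3): TMM scaling, the filterByExpr filter with days as groups, the quasi-likelihood F test with day as the factor and Benjamini-Hochberg adjustment over 22378 genes, called at an adjusted p under 0.05. Days 1, 4, 5 and 7 have 1 set each and are assumed to vary like days 0 and 3. P-values measure the spread between sets as shared over genes, which may be technical. The prior degrees of freedom were infinite, so a gene's own spread between sets did not enter its p. The SE was derived from the F statistic, as the absolute log2 fold change divided by its square root. CPM uses the TMM-scaled totals. TPM values deposited by the authors gave the levels per cell, the markers and the TCF/LEF makeup. Detection means 1 TPM or more, with exact 95% Clopper-Pearson intervals over cells, which cover counting error only. The counting intervals of ratios treat reads as independent molecules, which reads without molecular identifiers are not. Shares were also read after thinning to 300000 counts per cell. Of 80 thinned shares, 2 lay outside the interval of the unthinned one: Axin2 at day 7 (35.4%, against 50.8%) and Wnt5a at day 1 (100.0%, against 94.8%).

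Alternatives were DESeq2 1.42.0, its size factors in edgeR, no filter, all 10 sums and a block on the prefix. Others were limma 3.58.1 on log2 mean TPM with pseudocounts of 1 and 0.1, and leaving out each set of days 0 and 3. The rest left out the highest cell of each set, the 41 cells with few genes, or the day 4 set (the last chosen after seeing the data). No 2 cells had identical counts.

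The 10 members and all lists were chosen with earlier results of these data known. Beside the members, the text names up to 6 called genes per direction and comparison with the largest fold change from the pathway list, its most abundant genes without a call, and the 3 genes most like each member, among genes of at least 20 CPM, for members of at least 10 CPM (Dkk2 and Axin2 are below). Porcn, Wls, Ror2, Tcf7l2, Ccnd1 and Rspo3 fall outside that rule and were chosen after their values were seen. Promoter sequences are from RefSeq (GRCm38.p6).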

Additional observations from a re-analysis of the deposited data

Results flagged for a closer look

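Between day 3 and day 0, Sfrp2, Lef1 and Wnt5a had log2 ratios of opposite sign in prefixes b1 and b2. These prefixes have 1 set per day each, so that the difference was not tested. The share of all genes with opposite signs was not counted, so this cannot be read as particular to the Wnt genes. The log2 ratio of day 3 over day 0 for Sfrp2 was -4.936 in b1 and 3.658 in b2. For Lef1 it was 0.718 in b1 and -0.532 in b2. For Wnt5a it was 0.005 in b1 and -0.513 in b2, of which the first is close to 0.

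The 5 b1 cells of day 5 and the 2 b1 cells of day 7 entered no comparison. Their mean levels were above both day 0 sets for several members, in samples too small to place a level. Axin2 had a mean of 4.192 TPM in the 5 cells of day 5 and 13.18 TPM in the 2 cells of day 7, against at most 2.067 TPM at day 0. Lef1 had 18.04 TPM at day 5, against at most 14.37 TPM at day 0, and Tcf7l1 34.31 TPM at day 5, against at most 13.43 TPM. Tcf7 had 21.63 TPM at day 7, against at most 9.831 TPM at day 0, and Ctnnb1 170.9 TPM at day 7, against at most 156.8 TPM. Not all means went this way. In the 2 cells of day 7, Lef1 (6.315 TPM) and Tcf7l1 (9.37 TPM) were below both day 0 sets, of which the lower had 11.78 and 13.06 TPM. Ctnnb1 had 147.7 TPM in the 5 cells of day 5, between the day 0 sets (156.8 and 110.1 TPM).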

How the results depend on the processing

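Of 960 log2 fold changes of the 10 genes under the alternatives, 837 had the call and direction of the reported value, 60 lost a call, 14 gained one and 49 differed in sign; the cause was not tested. Counts are given for days 1, 3, 4, 5 and 7 against day 0, then day 5 against 3 and day 7 against 5. Genes changed numbered 716, 1559, 1233, 2149, 2881, 1006 and 472 in DESeq2, against 265, 703, 679, 1059, 1477, 383 and 124 as reported, and 1, 37, 33, 158, 352, 12 and 18 with all 10 sums, which adds sets of 5 and 2 cells. With limma on TPM they numbered 0, 0, 0, 0, 582, 0 and 0 with pseudocount 1 and 0, 0, 0, 0, 441, 0 and 206 with pseudocount 0.1, where the counts of 0 went with 1316 to 2726 genes at an unadjusted p under 0.05. With each set's highest cell left out, day 7 against 5 had 61. Leaving out 1 set of day 0 or day 3 gave 145 to 440, 261 to 793, 421 to 846, 691 to 1271, 918 to 1678, 161 to 690 and 69 to 221.

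Of the 10 genes, DESeq2 called 2, 1, 0, 3, 3, 1 and 1, against 1, 1, 1, 2, 3, 1 and 1 as reported, and TPM with either pseudocount and all 10 sums called 0 in each. At day 5 against day 0, 1 was called with no filter, 1 without the highest cells and 1 without cells with few genes, which also left 0 at day 3. Without the highest cells 0 were called at day 4 and at day 7 against 5. Leaving out 1 set gave 1 to 2, 0 to 2, 0 to 1, 1 to 3, 2 to 3, 0 to 3 and 0 to 1. Without the day 4 set the counts were those reported.

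The prefixes b1 and b2 are shared by days 0 and 3, and the b1 deviations of those days correlated at 0.0574 over 22378 genes, so the prefix was not shown to pair the sets. With the prefix block, which leaves out day 4, genes changed numbered 6, 191, 290, 432, 23 and 16 at days 1, 3, 5 and 7 against day 0, day 5 against 3 and day 7 against 5. Of the 10 genes it called 0, 0, 0, 1 (Dkk3), 0 and 0, and Sfrp1 at day 5 against 3 was 0.11.

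On TPM with pseudocount 1, the values of the other sign were Sfrp1 0.019 (day 5 against 3), Sfrp2 0.98 (day 1 against 0), Dkk2 -0.12 (day 4 against 0), Wnt5a 0.003 (day 3 against 0), Tcf7 -0.083 (day 1 against 0) and 0.038 (day 7 against 5), Ctnnb1 -0.20 (day 1 against 0) and 0.29 (day 4 against 0) and -0.097 (day 5 against 3). On TPM with pseudocount 0.1, the values of the other sign were Sfrp1 0.021 (day 5 against 3), Sfrp2 1.06 (day 1 against 0), Dkk2 -0.16 (day 4 against 0), Wnt5a 0.002 (day 3 against 0), Tcf7 -0.091 (day 1 against 0) and 0.039 (day 7 against 5), Ctnnb1 -0.20 (day 1 against 0) and 0.29 (day 4 against 0) and -0.098 (day 5 against 3). With each set's highest cell left out, the values of the other sign were Sfrp1 0.35 (day 5 against 3), Sfrp2 2.22 (day 1 against 0) and 1.04 (day 3 against 0) and 0.66 (day 7 against 0), Ctnnb1 -0.19 (day 1 against 0) and -0.025 (day 5 against 3). With all 10 sums, the values of the other sign were Dkk3 0.49 (day 5 against 3), Wnt5a 0.67 (day 7 against 5), Axin2 0.22 (day 7 against 5), Lef1 -0.21 (day 7 against 5), Tcf7l1 -0.048 (day 7 against 5), Ctnnb1 -0.041 (day 5 against 3). Without the cells with few genes, the values of the other sign were Lef1 -0.028 (day 3 against 0) and -0.060 (day 7 against 5), Tcf7 0.022 (day 7 against 5), Ctnnb1 -0.025 (day 7 against 5). 

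Over the settings that leave out 1 set each, those results ranged as follows. For Sfrp1 the log2 difference ran -1.29 to 0.52 (day 7 against 0), -0.40 to 0.40 (day 5 against 3). For Sfrp2 the log2 difference ran -1.72 to 3.28 (day 1 against 0), -3.98 to 2.77 (day 3 against 0), -4.81 to 0.19 (day 4 against 0), -3.76 to 1.23 (day 7 against 0). For Dkk2 the log2 difference ran -0.26 to 0.96 (day 4 against 0). For Dkk3 the log2 difference ran -0.63 to 0.60 (day 5 against 3). For Wnt5a the log2 difference ran -0.57 to 0.058 (day 3 against 0). For Lef1 the log2 difference ran -0.23 to 0.47 (day 3 against 0), -0.076 to 0.62 (day 4 against 0). For Ctnnb1 the log2 difference ran -0.052 to 0.13 (day 1 against 0), -0.17 to 0.012 (day 4 against 0).

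Depth limits the low members most: Axin2 rests on 169 and 44 counts at day 0, and Dkk3 on 60 at day 7.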
